A study of Rattus norvegicus with 4 samples.

Results

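Dendritic cells take up antigen in a tissue and, on maturing, raise the chemokine receptor Ccr7, the actin-bundling protein fascin (Fscn1) and co-stimulatory molecules, and travel through lymphatic vessels to the lymph node, where they present peptides on MHC molecules to T cells. Maturation is driven largely through NF-kappa-B family factors, and mature cells also carry ligands that restrain T cells, such as Cd274 (PD-L1). In wounded skin the dendritic compartment holds dermal conventional cells, Langerhans cells of the epidermis and recruited cells of monocyte origin.

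The cells described here are 587 barcodes, of 32801 that passed the depth filter, that carried Ccr7 and were rich in Cd74, the invariant chain of MHC class II, in day 4 rat skin wounds. They were chosen by their own counts, so the genes of the rule describe them and test nothing. A barcode needed at least 1000 UMIs, at least 250 genes and at most 20% mitochondrial UMIs. It also had to hold under 0.5% of UMIs from Krt5 and Krt14, under 1% from collagen genes and Dcn, and under 0.5% from the neutrophil genes G0s2, Il1r2, S100a8 and S100a9. Finally it had no UMI of the Cd3 genes, fewer than 3 of the C1q genes, at least 1 UMI of Ccr7 and at least 3 of Fscn1 and Cd74 together. Of 19 genes that the rule names, 18 were used and Col1a2 was not analysed here.

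Skin was collected 4 days into a rat wound healing model from a group injected with purified migrasomes (membrane-bound organelles shed along the trailing fibres of moving cells) and from a group in which nothing was injected. Each group had 2 droplet single-cell libraries, named injected 1, injected 2, uninjected 1 and uninjected 2 below. The labels give no strain, sex, age or source of the migrasomes and do not say that the libraries came from separate animals, so p-values measure the spread between libraries, which may be technical. Because the other group received no injection at all, the act of injecting and the migrasomes cannot be told apart.

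The rule took 174 cells from injected 1 and 113 from injected 2, against 45 from uninjected 1 and 255 from uninjected 2. Their median depth was 8831.5 and 8979 UMIs in the injected libraries, against 5778 and 9847 UMIs in the uninjected ones. No chosen barcode sequence was chosen in more than 1 library. Uninjected 1 stood apart. Its Ccr7-positive cells had 11.5% of their UMIs in ribosomal protein genes, against 5.31% to 5.64% in the other 3 libraries, and its summed profile correlated with the others at r = 0.877 to 0.888 over 7604 genes, against 0.951 to 0.957 among the rest. For several genes in which uninjected 1 was the extreme library, fold changes are also given without it.

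The limits on other cell types removed most barcodes before Ccr7 was read. From 32801 barcodes, 24586 were left after the keratin limit, 21996 after the collagen limit, 12690 after the neutrophil limit and 11845 after the T cell and C1q limits. Of these, 2178 had enough Fscn1 and Cd74, and 587 of the 2178 (27.0%) had a Ccr7 UMI. Ccr7 was close to absent from the barcodes that failed the keratin, collagen or neutrophil limit. It had a UMI in 29 of 8215 keratinocyte barcodes (0.353%), 11 of 2590 fibroblast barcodes (0.425%) and 14 of 9306 neutrophil barcodes (0.150%). Barcodes that failed the T cell or C1q limits were not scored for Ccr7. With every cell thinned to 1000 UMIs the share among the 2178 was 6.11%, against 0.0365% of the keratinocyte barcodes. A single Ccr7 UMI was present in 258 cells and 2 or more in 329, while 1591 barcodes with enough Fscn1 and Cd74 but no Ccr7 UMI lay just outside. In injected 1 the maturation marker Cd83 stood at 1240 CPM (a gene's UMIs in the summed cells, scaled to a common total per sum) in cells with 1 Ccr7 UMI and at 1400 CPM (2 or more), against 357 CPM in those with none. At the other threshold, 10 cells sat at 3 to 5 UMIs of Fscn1 and Cd74, and 19 Ccr7-bearing barcodes with 1 or 2 such UMIs lay just below.

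The label of mature dendritic cells was borne out in part. Cd74 and Fscn1 belong to the rule and test nothing here. Cd74 was detected in 586 of the 587 cells, but Fscn1 in 141 (24.0%), with 3 or more UMIs in 80. Lamp3, a lysosomal marker of mature dendritic cells, had no UMI in any of them, which allows a share of cells with a UMI of up to 0.511% (3 counts, counting error only). Co-stimulatory Cd86 was detected in 513 cells (87.4%), Cd83 in 510 (86.9%) and Cd40 in 367 (62.5%), while the chemokine Ccl22 was detected in 188 (32.0%). The cells are therefore called Ccr7-positive here. The keratinocyte gene Krt17 gave a UMI in 553 cells (94.2%). Free RNA, the RNA also found in empty droplets, could at its upper bound make up 26.6% to 67.9% of the Krt17 UMIs in the 4 libraries. The source of the rest was not tested. By the gene that bounds free RNA most tightly in each library, it made up at most 2.18% and 2.66% of the cells' UMIs in the injected libraries, against 4.72% and 1.61% in the uninjected ones.

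Clustering split the Ccr7-positive cells into 9 sub-clusters that differed in which maturation and lineage genes they carried. The split used all genes of these cells, so the values describe the sub-clusters and no test was made. Sub-cluster 2, with 103 cells, came closest to the label. In it 8 of 12 mature dendritic markers were raised over the median sub-cluster, the rule gene Fscn1 among them. Fewer of the 12 were raised in sub-cluster 8 (5) and sub-cluster 1 (3). Sub-cluster 2 is called mature dendritic-like. Its Fscn1 level was 629 CPM, against 0 to 265 CPM in the other 8. It also held 1423 CPM of Cd200, a ligand that restrains myeloid cells, 582 CPM of Cacnb3, a calcium channel subunit, and 1154 CPM of the interferon-induced gene Isg15.

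**Figure D1:**
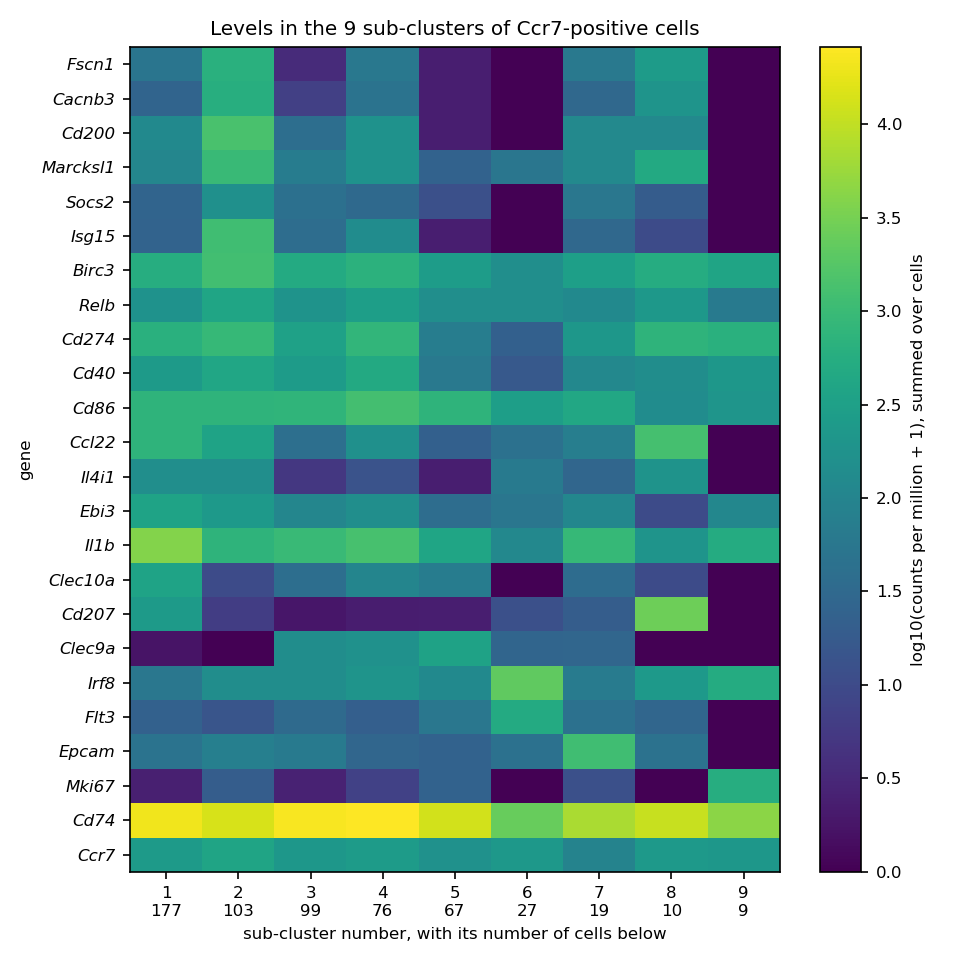
Heat map of 24 genes (rows) in the 9 sub-clusters (columns) of the 587 Ccr7-positive cells, with color giving log10 of CPM + 1 in the summed cells. Fscn1, Cacnb3, Cd200 and Isg15 are brightest in sub-cluster 2, Cd207 in sub-cluster 8, Irf8 in sub-cluster 6 and Clec9a in sub-clusters 3 to 5.

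Most other cells lay in sub-clusters with leading genes of mixed kinds, which are left unnamed. The largest, sub-cluster 1 with 177 cells, was led by Flt1, an endothelial list gene, the lectin Cd207, Ccl22, the lectin Clec10a and Cd14, a co-receptor for bacterial lipopolysaccharide, and held 3993 CPM of Il1b, against 113 to 1336 CPM in the other 8. It also had 4 macrophage markers raised. Sub-clusters 3, 4 and 5, with 99, 76 and 67 cells, shared Slpi, a protease inhibitor on the neutrophil list, Plet1 and Naaa among their leading genes. They held 143, 173 and 350 CPM of Clec9a, a receptor for dead cells on cross-presenting dendritic cells. In sub-cluster 6, with 27 cells, 10 plasmacytoid dendritic markers were raised, among them Siglech, Tcf4 and Runx2, and the lineage factor Irf8 stood at 2141 CPM. None of these was among its 10 leading genes, which included the B cell gene Ighm and the NK cell gene Xcl1. Sub-cluster 8, with 10 cells, held 2808 CPM of Cd207, the Langerhans cell lectin that forms Birbeck granules, together with 1317 CPM of Ccl22.

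The remaining sub-clusters were led by genes of other cell types. In sub-cluster 7, with 19 cells, 14 keratinocyte markers were raised, the median depth was 18156 UMIs, and the doublet caller Scrublet marked 17 of the 19 cells. Sub-cluster 9, with 9 cells and a median of 3544 UMIs, was of mixed kind. In it 10 B cell markers were raised, among them Cd79a and Ighm, but also 6 NK and innate lymphoid markers, among them Nkg7 and Prf1. Of 25 cell division genes, 14 were raised in it. Its leading genes began with Gzmk and Ctsw, and Scrublet marked 4 of the 9 cells. Scrublet marked 34 of the 587 cells in all. The marked cells and sub-clusters 7 and 9 were kept in the main values. Counts of genes that passed without them are given in the section on processing.

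The share of Ccr7-positive cells did not differ between injected and uninjected wounds beyond the spread of the libraries. They made up 1.77% of filtered barcodes in injected 1 (95% Wilson interval 1.52 to 2.05, counting error only) and 1.84% in injected 2 (1.53 to 2.21). The uninjected libraries bracketed these, with 0.576% in uninjected 1 (0.430 to 0.769) and 2.84% in uninjected 2 (2.51 to 3.20). The means were 1.80 ± 0.0516% in injected wounds and 1.71 ± 1.60% in uninjected ones (SD, n = 2 each), with p = 1 in a two-sided exact permutation test that cannot go below 0.333 with 2 libraries against 2. Leaving out uninjected 1 turned the difference of the means from 0.097 to -1.03 percentage points.

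The share of Ccr7-positive cells in the Ccr7-positive and Ccr7-negative sets together was likewise not distinguishable between the groups. The set used for this held 983 Ccr7-negative cells, inside the same limits, with no Ccr7 UMI, at least 3 UMIs of Fscn1 and Cd74, and at least 1 UMI of Flt3, Zbtb46, Xcr1, Clec9a, Cd209a, Clec10a or Cd207. Ccr7-positive cells were 37.4% and 32.3% of the 2 sets together in the injected libraries, against 30.2% and 42.1% in the uninjected ones (exact p = 1). With each cell thinned to 1000 UMIs and the sets chosen anew from the thinned counts, the values were 19.8% and 11.3% in injected libraries, against 14.3% and 22.4% in uninjected libraries (exact p = 0.667).

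**Figure D2:**
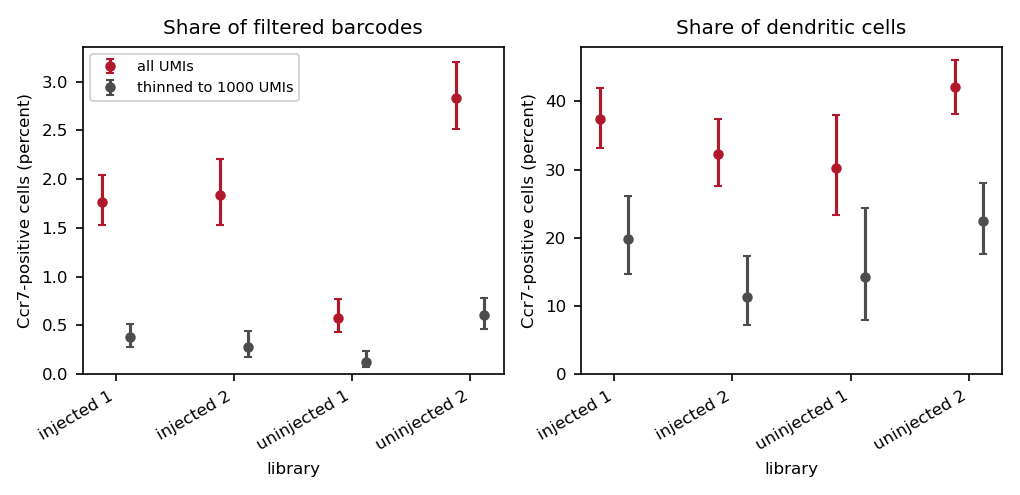
Share of Ccr7-positive cells in each library, in percent of filtered barcodes and in percent of Ccr7-positive plus Ccr7-negative dendritic cells, with all UMIs and after thinning to 1000 UMIs per cell. Bars around each point are 95% Wilson intervals, and the injected libraries lie between the 2 uninjected ones at 1.77% and 1.84% of filtered barcodes, against 0.576% and 2.84%.

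Of 8 mature dendritic markers outside the selection rules that could be tested, 8 passed as higher in the Ccr7-positive cells against Ccr7-negative dendritic cells of the same library, beside a background of 12.2% of all tested genes that passed as higher. Within each library the Ccr7-positive cells differed from the Ccr7-negative dendritic cells across genes of T cell contact, signalling and antigen presentation. UMIs were summed per library and cell set, and edgeR's quasi-likelihood test with the library as a block was fitted to 8868 genes, all genes read by either selection rule being left out of the calls. At a Benjamini-Hochberg adjusted p under 0.05, 1894 genes passed (21.4%), of which 1084 were higher in Ccr7-positive cells (12.2% of genes tested) and 810 lower (9.13%). The median log2 fold change over all genes tested was -0.04. Median depth moved with the sets, at 8831.5, 8979, 5778 and 9847 UMIs in Ccr7-positive cells, against 7297, 7742, 5435.5 and 8192 UMIs in Ccr7-negative cells (injected 1, injected 2, uninjected 1, uninjected 2 in both). With every cell thinned to 1000 UMIs, 605 of 3202 tested genes passed (18.9%, with 10.1% as higher and 8.78% as lower). The sets were still those chosen at full depth, so thinning did not remove the part of depth in choosing the cells. The count fell to 863 without uninjected 2 and to 1056 without injected 1. Without the library block 701 genes passed, and of the genes named below Cd80, Irf8, RT1-Ba, RT1-Bb, B2m, Bcl2a1, Il1b, Siglech, Paqr5, Plpp3, Mmp3 and Serpinh1 no longer did.

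The content of the Ccr7-negative set has to be read beside every count. Cells with at least 0.5% of their UMIs in Cd74 were 87.2% of the Ccr7-positive cells. By library, in the order above, they were 142 of 174, 107 of 113, 42 of 45 and 221 of 255. In the Ccr7-negative set such cells were fewer, at 162 of 291, 175 of 237, 75 of 104 and 200 of 351. Plasmacytoid marker UMIs came to 521 to 745 CPM over 14 genes in the Ccr7-positive sums, against 731 to 1849 CPM in the Ccr7-negative sums. Fibroblast marker UMIs came to 64.8 to 86.9 CPM over the 14 markers outside the rule in the Ccr7-positive sums, against 159 to 630 CPM in the Ccr7-negative sums. The part of either in the results below was not tested. An alternative chosen after seeing the data therefore limited both sets to cells with at least 0.5% of UMIs in Cd74, and its values are given where they change a count. Under it 849 of 7310 genes passed (11.6%), 547 as higher (7.48%) and 302 as lower (4.13%), and counts in the Cd74-limited sets below are to be read beside these shares.

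Co-stimulatory genes and chemokines for T cells were higher in the Ccr7-positive cells. Of 18 tested genes of co-stimulation and T cell contact, 14 passed as higher, none as lower, and the median log2 fold change was 1.46. With both sets limited by Cd74, 12 of 16 passed as higher, with a median of 0.86. Cd86, a ligand of Cd28, stood at 975, 919, 508 and 789 CPM in the Ccr7-positive cells of the 4 libraries, against 316, 341, 173 and 272 CPM in the Ccr7-negative cells. Every positive value lay above every negative one, for a log2 fold change of 1.53 ± 0.10 (SE, edgeR adjusted p = 7.26e-05). Cd40, the receptor for T cell help, averaged 267 ± 77.4 CPM in positive and 68.9 ± 31.4 CPM in negative cells (SD, n = 4 libraries each; log2 fold change 2.03, edgeR adjusted p = 0.00021). The maturation marker Cd83 was also higher (log2 fold change 1.29), as was Cd80, the second Cd28 ligand (1.49), although for both the lowest positive library overlapped the negative range. Ccl22, a chemokine for Ccr4-bearing T cells, stood at 513, 410, 462 and 184 CPM in positive cells, against 155, 45.1, 74.8 and 38.5 CPM in negative cells (log2 fold change 2.40, edgeR adjusted p = 0.000204). Ebi3, a subunit shared by interleukins 27 and 35, and the adhesion ligand Icam1 were higher by 1.86 and 0.97 on the log2 scale.

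Genes that restrain T cells were higher in the same cells. Of 16 tested, 9 passed as higher and 1 as lower, with a median log2 fold change of 1.12, and with both sets limited by Cd74 7 of 14 passed as higher and 1 as lower. Cd274 stood at 542, 662, 431 and 546 CPM in positive cells, against 150, 178, 54.5 and 68.8 CPM in negative cells (log2 fold change 2.37 ± 0.22, edgeR adjusted p = 0.00021). The groups did not overlap. Pdcd1lg2, the second ligand of PD-1, averaged 76.9 ± 16.0 CPM in positive and 17.7 ± 9.09 CPM in negative cells (log2 fold change 2.17). Cd200 averaged 258 ± 79.0 CPM in positive and 60.9 ± 27.9 CPM in negative cells (log2 fold change 2.15). Il4i1, a secreted amino acid oxidase that limits T cell growth, and Aldh1a2, which makes retinoic acid, were higher by 2.43 and 2.69 on the log2 scale. Fas, a death receptor, was higher by 1.87.

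**Figure D3:**
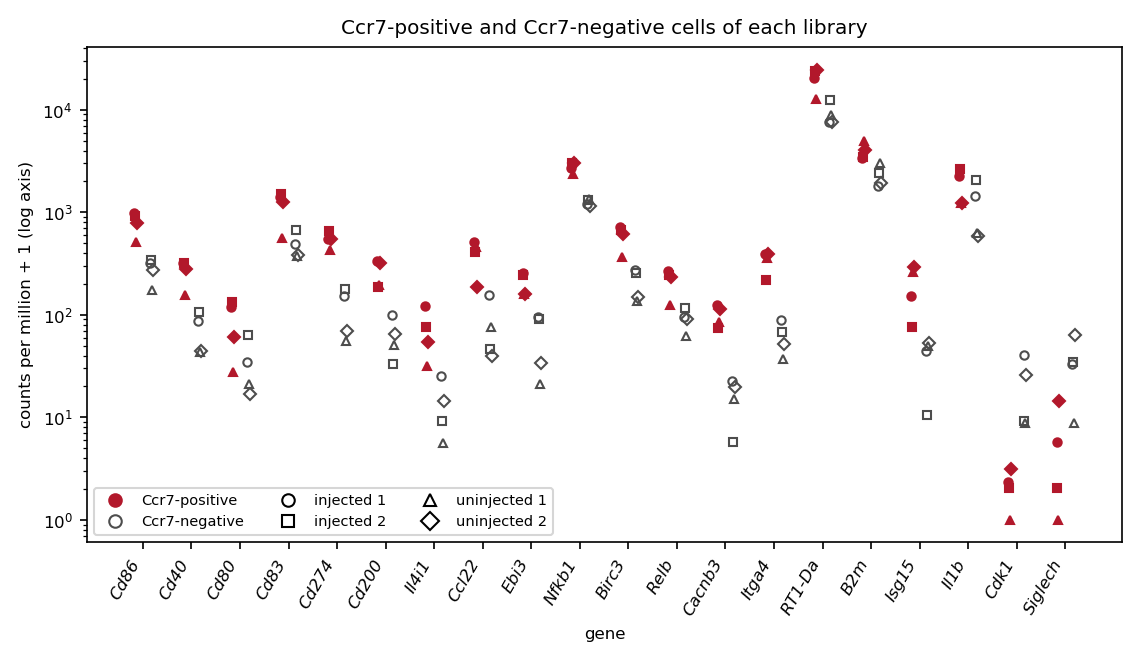
CPM + 1 on a log axis for 20 genes in the summed Ccr7-positive cells (left of each pair) and Ccr7-negative dendritic cells (right) of the 4 libraries, each library with its own symbol. Cd86, Cd40, Cd274 and Cacnb3 are higher in the positive cells of every library, at log2 fold changes of 1.53, 2.03, 2.37 and 2.81.

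Signalling and survival genes of the mature program, a list that mixes NF-kappa-B family members with cytokine signalling and survival genes, were mostly higher. Of 27 tested, 19 passed as higher and 2 as lower, with a median of 0.98. With both sets limited by Cd74, 15 of 25 passed as higher and 2 as lower. Nfkb1, which encodes the p105 precursor, stood at 2713, 3038, 2380 and 3044 CPM in positive cells, against 1217, 1325, 1348 and 1163 CPM in negative cells (log2 fold change 1.15 ± 0.11, edgeR adjusted p = 0.000269). The groups lay well apart. Nfkb2 and Relb, the partners of the non-canonical pathway, were higher by 0.98 and 1.28, and Map3k14, the kinase that starts it, by 1.60. Nfkb2 no longer passed when cells were thinned to 1000 UMIs. Among survival genes, Birc3 and Bcl2a1 were higher by 1.58 and 1.30. Stat5a, a factor downstream of cytokine receptors, and the adaptor Samsn1 were higher by 1.89 and 2.14. Of the lineage factors, Irf4 was higher (138 ± 45.1 CPM in positive and 51.8 ± 15.4 CPM in negative cells, log2 fold change 1.36), while Irf8 was lower (184 ± 61.0 CPM in positive and 410 ± 199 CPM in negative cells, log2 fold change -1.13). The Irf8 difference no longer passed with both sets limited by Cd74.

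The promoters of Nfkb1 and Nfkb2 are shown because both genes passed as higher and each window holds a kappa-B motif, the sequence that NF-kappa-B dimers bind. Promoters are RefSeq sequences of rat assembly GRCr8, from 250 bases before to 50 after the annotated start. The motif was searched on both strands as GGGA, then any 2 bases, then TTCC, and 435 of 33365 promoters (1.30%) held it. Its first base lies 3 bases after the start in Nfkb1 (chr2:226805413-226805712, minus strand) and 20 bases before the start in Nfkb2 (chr1:255108124-255108423, plus strand), and the capitals mark it. A match describes the letters of the window and is not evidence of binding.
Nfkb1: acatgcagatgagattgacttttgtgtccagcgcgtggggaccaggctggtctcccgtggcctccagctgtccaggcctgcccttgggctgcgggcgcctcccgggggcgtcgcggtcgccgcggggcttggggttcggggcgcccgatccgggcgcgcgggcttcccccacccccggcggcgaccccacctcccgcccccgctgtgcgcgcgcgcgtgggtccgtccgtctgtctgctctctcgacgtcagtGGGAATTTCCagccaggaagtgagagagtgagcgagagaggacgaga
Nfkb2: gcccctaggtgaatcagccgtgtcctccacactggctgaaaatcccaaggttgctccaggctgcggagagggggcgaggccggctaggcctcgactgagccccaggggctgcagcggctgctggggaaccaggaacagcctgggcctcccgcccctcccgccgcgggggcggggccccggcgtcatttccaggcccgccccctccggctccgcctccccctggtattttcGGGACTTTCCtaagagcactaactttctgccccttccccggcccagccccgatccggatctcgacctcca

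MHC genes were higher in the Ccr7-positive cells. Of 10 class II presentation genes tested, 6 passed as higher and 1 as lower, with a median of 0.99. The alpha chain gene RT1-Da stood at 20310, 24061, 12754 and 24691 CPM in positive cells, against 7525, 12345, 8838 and 7673 CPM in negative cells (log2 fold change 1.15 ± 0.17, edgeR adjusted p = 0.00187), and the beta chain gene RT1-Db1 was higher by 1.24. RT1-Ba and RT1-Bb, the chains of the second class II molecule, were higher by 1.20 and 1.10. Cd9, a tetraspanin that associates with class II, was the gene that passed as lower, at 305 ± 37.8 CPM in positive and 903 ± 502 CPM in negative cells. With both sets limited by Cd74, 3 of 8 passed as higher, RT1-Da and RT1-Db1 by 0.46 and 0.54, and RT1-Bb no longer passed. Since Cd74 is a class II partner and both sets were cut on it, these genes are not independent of the way the cells were chosen.

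The 4 class II promoters are shown because all 4 genes passed together and each window holds the Y box, the inverted CCAAT element of class II promoters that the factor NF-Y binds. It was searched as CTGATTGG on both strands, and 1170 of 33365 promoters (3.51%) held it. The first base of the motif, in capitals, lies 46 bases before the start in RT1-Ba (chr20:4576807-4577106, plus strand), 64 in RT1-Bb (chr20:4604069-4604368, minus strand), 52 in RT1-Da (chr20:4515165-4515464, plus strand) and 83 in RT1-Db1 (chr20:4560113-4560412, minus strand).
RT1-Ba: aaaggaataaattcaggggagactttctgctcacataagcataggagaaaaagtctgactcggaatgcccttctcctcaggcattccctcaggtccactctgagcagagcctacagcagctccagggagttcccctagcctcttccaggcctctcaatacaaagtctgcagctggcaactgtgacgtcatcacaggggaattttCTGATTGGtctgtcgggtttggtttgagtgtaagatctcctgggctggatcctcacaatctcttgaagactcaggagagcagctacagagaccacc
RT1-Bb: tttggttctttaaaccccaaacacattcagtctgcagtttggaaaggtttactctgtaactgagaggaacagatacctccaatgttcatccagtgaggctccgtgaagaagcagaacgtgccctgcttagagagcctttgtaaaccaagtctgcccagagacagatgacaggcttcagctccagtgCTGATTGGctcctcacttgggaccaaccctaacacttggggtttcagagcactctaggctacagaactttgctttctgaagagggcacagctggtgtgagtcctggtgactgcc
RT1-Da: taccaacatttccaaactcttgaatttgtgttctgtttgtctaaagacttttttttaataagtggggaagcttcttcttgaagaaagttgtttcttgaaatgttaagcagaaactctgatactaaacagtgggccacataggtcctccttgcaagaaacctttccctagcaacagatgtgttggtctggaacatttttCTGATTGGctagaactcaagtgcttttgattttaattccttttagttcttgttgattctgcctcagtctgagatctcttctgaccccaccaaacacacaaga
RT1-Db1: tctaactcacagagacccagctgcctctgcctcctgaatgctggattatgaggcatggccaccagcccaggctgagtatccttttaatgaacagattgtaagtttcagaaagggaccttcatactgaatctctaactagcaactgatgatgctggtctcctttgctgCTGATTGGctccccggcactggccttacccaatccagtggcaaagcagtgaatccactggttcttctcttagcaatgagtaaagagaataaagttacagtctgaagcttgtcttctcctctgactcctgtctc

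Of 18 genes searched for the 2 motifs, 6 had a Y box, those 4 with RT1-DOa, a class II-like chain that modulates peptide loading, and Il4i1, and 2 had the kappa-B motif.

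Class I presentation moved the same way. Of 21 genes tested, 16 passed as higher and none as lower, with a median of 0.79, and 12 of 21 passed as higher with both sets limited by Cd74. B2m, the shared light chain, averaged 3934 ± 715 CPM in positive and 2301 ± 549 CPM in negative cells (log2 fold change 0.79). Nlrc5, the transactivator of class I genes, averaged 34.7 ± 10.6 CPM in positive and 10.5 ± 3.89 CPM in negative cells (log2 fold change 1.68, edgeR adjusted p = 0.000968). Class I heavy chain genes of the rat are close copies, and how reads were shared among them is not known here, so RT1-A1 (higher by 1.07) is given with that uncertainty.

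Migration and cytoskeleton genes were mixed, with a minority passing. Of 28 tested, 11 passed as higher and 1 as lower, with a median of 0.44. Marcks, an actin-binding substrate of protein kinase C, stood at 659, 996, 955 and 695 CPM in positive cells, against 219, 308, 344 and 186 CPM in negative cells (log2 fold change 1.67 ± 0.11, edgeR adjusted p = 7.26e-05). Its relative Marcksl1 and the motor protein Myo1g were higher by 1.34 and 1.64. Itga4, the alpha chain of the integrin VLA-4, averaged 339 ± 83.7 CPM in positive and 60.3 ± 22.4 CPM in negative cells (log2 fold change 2.45). The sheddase Adam8 was higher by 1.53. Outside that list, Gpr183, an oxysterol receptor that positions dendritic cells in lymphoid organs, was higher by 1.53, and Il7r, a receptor chain for interleukin 7 and thymic stromal lymphopoietin, stood at 651, 657, 620 and 618 CPM in positive cells, against 238, 309, 357 and 215 CPM in negative cells.

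Inflammatory cytokines as a group were not higher. Of 26 tested, 2 passed as higher and 5 as lower, with a median of -0.13. Il1b averaged 1841 ± 709 CPM in positive and 1173 ± 707 CPM in negative cells, and it was higher within each library (log2 fold change 0.77, edgeR adjusted p = 0.00386), but it no longer passed when cells were thinned or with both sets limited by Cd74. Ccl7, a monocyte chemokine, was lower, at 50.1 ± 24.8 CPM in positive and 148 ± 53.1 CPM in negative cells (log2 fold change -1.64). Of 18 interferon-induced genes, 4 passed as higher, led by Isg15 at 152, 75.8, 262 and 295 CPM in positive cells, against 43.2, 9.54, 48.3 and 52.5 CPM in negative cells (log2 fold change 2.36, edgeR adjusted p = 0.000129).

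**Figure D4:**
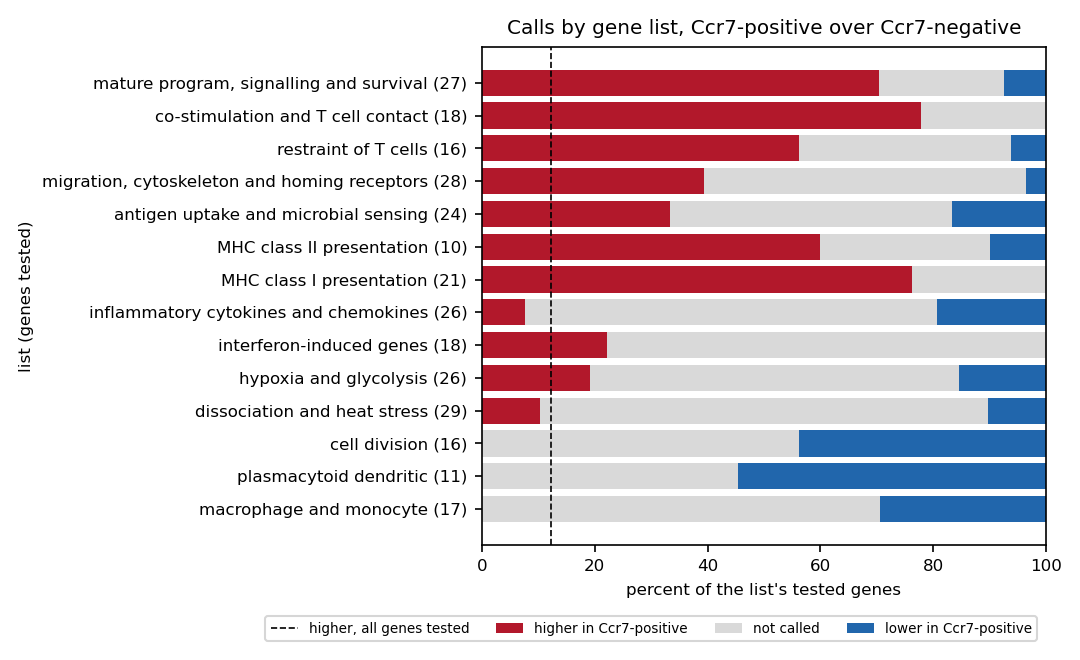
Percent of the tested genes of 14 lists that passed as higher or lower in Ccr7-positive against Ccr7-negative dendritic cells, with a dashed line at 12.2%, the share of all 8868 tested genes that passed as higher. Co-stimulation reaches 14 of 18 genes higher and class I presentation 16 of 21, while cell division has 7 of 16 lower.

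Among the genes of any role that reached 50 CPM and lay on the same side in all 4 libraries, Cacnb3 had the largest positive difference, at 124, 73.7, 84.7 and 113 CPM in positive cells, against 21.6, 4.77, 14.0 and 18.7 CPM in negative cells (log2 fold change 2.81 ± 0.23, edgeR adjusted p = 0.000149). Adcy5, an adenylyl cyclase, followed, at 194 ± 22.1 CPM in positive and 26.3 ± 8.42 CPM in negative cells (2.81). Next were Mab21l3 (2.68), the laminin-related Ntn4 (2.58), the carrier Slc22a23 (2.55), Sema7a, a membrane-anchored semaphorin (2.55), and Mrc2, an endocytic receptor for collagen (2.49). Stk4, the Hippo pathway kinase Mst1, averaged 381 ± 65.1 CPM in positive and 73.0 ± 13.7 CPM in negative cells (2.38). Tnfrsf11a, the receptor RANK, through which T cells prolong dendritic cell survival, also stood at 2.38. Itga4, Il4i1 and Ccl22, described above, complete the 12.

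The genes with the largest negative differences were mostly genes of other lineages. Des, the intermediate filament of muscle, was at 0, 0, 0 and 1.26 CPM in positive cells, against 212, 45.1, 84.1 and 131 CPM in negative cells. Rrad, a small GTPase of muscle, and the hormone gene Rln1 followed at log2 fold changes of -5.87 and -4.16. The matrix genes Sparc, Serpinh1, Mmp3 and Tfpi2 (a protease inhibitor) lay between -2.85 and -2.41, as did Paqr5, Plpp3, Cavin3, Tgfbr3 and Man1c1. Free RNA at its upper bound could make up 53.2% to 100% of the Sparc UMIs in the positive cells of the 4 libraries, 52.7% to 100% of Serpinh1, 41.7% to 100% of Mmp3 and 24.8% to 100% of Tfpi2. For Cavin3 the bound was 25.4% to 60.3%, for Plpp3 3.41% to 81.1% and for Tgfbr3 3.37% to 42.6%. For Rrad it was 32.0% to 100% in the libraries with a UMI. The sizes of all these differences are uncertain. In 3 of the genes named here the sign depended on the comparison set. With Ccr7-negative cells limited to those without Fscn1 UMIs, Sparc stood at 0.17, Cavin3 at 0.93 and Serpinh1 at 0.66. Without uninjected 2, Tgfbr3 (-1.82), Serpinh1 (-1.86) and Mmp3 (-1.11) no longer passed, nor did Mmp3 without uninjected 1 (-2.42).

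Plasmacytoid, macrophage and proliferation genes were lower in the Ccr7-positive cells. Of 11 plasmacytoid markers tested, 6 passed as lower and none as higher, with a median of -1.19. Siglech, a plasmacytoid lectin, averaged 4.78 ± 6.10 CPM in positive and 33.9 ± 22.4 CPM in negative cells. With both sets limited by Cd74, none of 5 passed. Of 17 macrophage and monocyte markers, 5 passed as lower, and 6 of 16 passed as lower in the Cd74-limited sets. Of 16 cell division genes, 7 passed as lower. Cdk1, the mitotic kinase, was at 1.34, 1.02, 0 and 2.10 CPM in positive cells, against 39.5, 8.24, 7.79 and 25.1 CPM in negative cells (log2 fold change -3.95, edgeR adjusted p = 0.000307). Its few UMIs in the positive cells could be 45.5% to 100% free RNA at the upper bound, so the size of this difference is uncertain. With both sets limited by Cd74, 1 of 6 division genes passed as lower. Among stress genes, 3 of 29 passed as higher and 3 as lower, close to the 12.2% and 9.13% of all tested genes that did. The nuclear receptor Nr4a3 was among the higher (1.40) and the chaperone gene Hspa1b among the lower (-2.01). Free RNA at its upper bound could make up 20.6% to 51.4% of the Hspa1b UMIs in the positive cells.

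Within the Ccr7-positive cells, no gene passed between injected and uninjected wounds. The edgeR quasi-likelihood test over 7604 genes called 0 at an adjusted p under 0.05 (0% of genes tested). The smallest adjusted p was 0.514, and 391 genes had an unadjusted p under 0.05, where 380.2 are expected with no difference. DESeq2 called 8. With 1 library left out, edgeR called 34 genes without injected 1, 9 without injected 2, 81 without uninjected 1 and 513 without uninjected 2, the lone library of a group being assumed to vary like the others. On simulated counts with the same libraries, the test called 65.7% of genes changed by 2 on the log2 scale. Of 94 genes changed by 1 it called 3 (3.19%), 2 of them in the right direction. Differences near 1 were therefore mostly not detectable with these libraries. The simulated test also called 10 unchanged genes. In every one of the 30 gene lists, 0 members passed.

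The maturation genes did not pass, although several did not overlap between the groups. Of 18 tested co-stimulation genes, 7 were higher in both injected libraries than in both uninjected ones, 2 were lower and 9 overlapped, where 20.0% of all 7604 genes were higher without overlap and 15.4% lower. Ebi3 was at 228 and 222 CPM in injected wounds, against 145 and 144 CPM in uninjected ones (log2 fold change 0.64 ± 0.29, edgeR adjusted p = 0.971). Icam1 was at 582 and 556 CPM in injected wounds, against 378 and 352 CPM in uninjected ones (0.64 ± 0.31, edgeR adjusted p = 0.971). For both, the gap between the groups was larger than the spread within them. Cd83 was at 1256 and 1366 CPM in injected wounds, against 519 and 1130 CPM in uninjected ones. The restraint gene Il4i1 was at 109 and 68.6 CPM in injected wounds, against 28.2 and 48.0 CPM in uninjected ones (1.11 ± 0.38, edgeR adjusted p = 0.927). Neither overlapped, but uninjected 1 was the lowest library in both, and without it the log2 fold change of Il4i1 was 0.90. Cd86 was at 879 and 832 CPM in injected wounds, against 466 and 711 CPM in uninjected ones (log2 fold change 0.53 ± 0.35, edgeR adjusted p = 0.996). Cd40 was at 286 and 287 CPM in injected wounds, against 141 and 251 CPM in uninjected ones. For Cd274 the groups overlapped, with 489 and 600 CPM in injected wounds, against 395 and 492 CPM in uninjected ones. Ccl22 overlapped too, at 462 and 372 CPM in injected wounds and 424 and 166 CPM in uninjected ones. Cd80 had 107 and 120 CPM in injected wounds, against 24.7 and 54.1 CPM in uninjected ones (log2 fold change 1.36 ± 0.38, edgeR adjusted p = 0.811, and 0.00386 to 0.9996 over the alternatives). For Cd86, Cd40 and Cd80 uninjected 1 was the lowest of the 4 libraries, and without it their log2 fold changes were 0.27, 0.19 and 1.06. The median log2 fold change over 18 tested co-stimulation genes was 0.52, where that over all genes was 0.03.

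Some genes that sub-cluster 1 carried at high levels, Il1b, Il1a, Clec10a and Cd14 among them, lay higher in both injected libraries without passing, and others did not. Il1b, the pro-inflammatory interleukin, had 2023 and 2386 CPM in injected wounds, against 1140 and 1120 CPM in uninjected ones (log2 fold change 0.96 ± 0.36, edgeR adjusted p = 0.949, and 0.0604 to 0.9997 over the alternatives). Within sub-cluster 1 alone it was at 4592 and 5641 CPM in injected wounds, against 2238 and 2462 CPM in uninjected ones, as a description. That sub-cluster had 67 and 43 cells in the injected libraries, against 15 and 52 in the uninjected ones. Clec10a had 167 and 234 CPM in injected wounds, against 74.1 and 61.3 CPM in uninjected ones (log2 fold change 1.59 ± 0.33, edgeR adjusted p = 0.636, and 0.00520 to 0.9996 over the alternatives). Cd14 had 706 and 784 CPM in injected wounds, against 233 and 381 CPM in uninjected ones (edgeR adjusted p = 0.842). Il1a had a log2 fold change of 1.09 with edgeR adjusted p = 0.927. Of other genes raised in sub-cluster 1, Il1rn, the interleukin 1 receptor antagonist, overlapped at 208 and 235 CPM in injected wounds, against 261 and 160 CPM in uninjected ones. The chemokine Ccl3 and the decoy receptor Il1r2 overlapped as well. Its second leading gene, Cd207, was at 66.3 and 137 CPM in injected wounds, against 176 and 142 CPM in uninjected ones. The share of cells in sub-cluster 1 was also higher in both injected libraries, at 38.5% and 38.1% of Ccr7-positive cells, against 33.3% and 20.4% in uninjected ones. It did not follow the values in every library. Uninjected 1 had a larger share than uninjected 2, but a lower Cd14 value and a similar Il1b value. The part of this share in the values of these genes was not tested.

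Isg15 had the opposite sign. It stood at 137 and 68.6 CPM in injected wounds, against 240 and 266 CPM in uninjected ones (log2 fold change -1.29 ± 0.38, edgeR adjusted p = 0.874, and 0.0426 to 0.9997 over the alternatives). Sub-cluster 2, which held most Isg15 per cell, made up 14.9% and 8.85% of the cells in injected wounds, against 28.9% and 21.2% in uninjected ones, and its part in the Isg15 values was not tested.

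The 10 genes with the smallest unadjusted p did not pass, with edgeR adjusted p between 0.514 and 0.636. Rab21, an endosomal GTPase, had 267 and 235 CPM in injected wounds, against 967 and 1231 CPM in uninjected ones (log2 fold change -2.13 ± 0.35). The Ccr7-negative cells of the same libraries had 117 and 131 CPM of Rab21 in injected wounds, against 382 and 433 CPM in uninjected ones. Ube2m, the conjugating enzyme of Nedd8, behaved alike, at 25.9 and 43.6 CPM in injected wounds and 145 and 243 CPM in uninjected ones (-2.53), with 39.8 and 39.9 CPM in injected and 148 and 250 CPM in uninjected Ccr7-negative cells. Dgcr6 (-2.08), Wdpcp (-2.37) and the neuropeptide gene Tac1 (-1.83) also lay lower in both injected libraries.

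The other 5 lay higher in both injected libraries, several through few cells. Gpnmb, a lysosomal glycoprotein of lipid-laden myeloid cells, had 102 and 118 CPM in injected wounds, against 7.06 and 19.7 CPM in uninjected ones (log2 fold change 2.73 ± 0.41), and 1 cell of injected 1 held 35.6% of its UMIs. Sbsn, an epidermal secreted protein (3.45), had 92.7% of its UMIs in the keratinocyte-gene sub-cluster 7. Prom1 (2.78) had 33.1% of its UMIs in 1 cell of injected 2. Lcn2, an iron-siderophore carrier (3.51), and Ccrl2, an atypical chemerin receptor (2.98), were at most 23.5 CPM in every library. At its upper bound free RNA could make up 82.6% to 100% of the Lcn2 UMIs and 7.58% to 63.3% of the Ccrl2 UMIs, so the Lcn2 values may not be those of these cells.

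**Figure D5:**
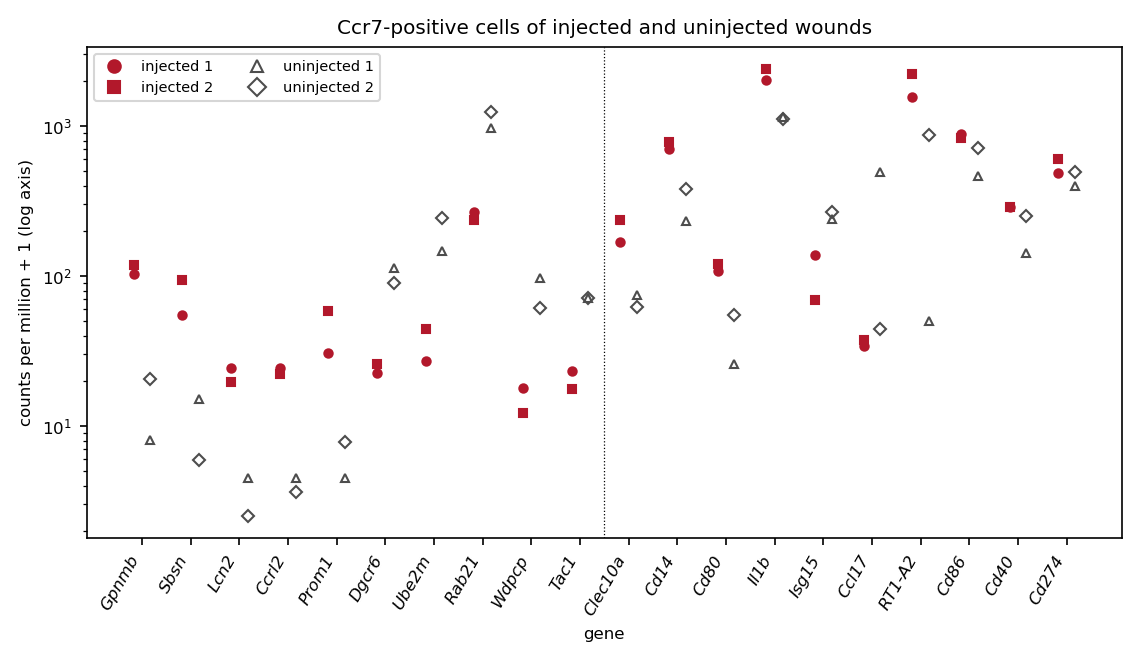
CPM + 1 on a log axis in the summed Ccr7-positive cells of each library, injected left of uninjected, for the 10 genes with the smallest unadjusted p (left of the dotted line) and 10 genes of maturation and inflammation (right). None passed at an adjusted p under 0.05; Rab21 stands at 267 and 235 CPM in injected wounds, against 967 and 1231 CPM in uninjected ones.

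Some values of uninjected 1 stood alone. The class I gene RT1-A2 had 1554 and 2237 CPM in injected wounds, against 49.4 and 872 CPM in uninjected 1 and uninjected 2. The chemokine Ccl17 had 33.1 and 36.2 CPM in injected wounds, against 494 CPM in uninjected 1 and 43.5 CPM in uninjected 2. Without uninjected 1 the log2 fold change of RT1-A2 was 1.12, where it was 2.00 with it, and that of Ccl17 was -0.33, where it was -2.86. Neither passed with all 4 libraries. With 1 library left out, RT1-A2 ranged from 1.12 to 5.30 and Ccl17 from -3.79 to -0.33. The Ccr7-negative cells had the same library apart for RT1-A2, at 750 and 1413 CPM in injected wounds, against 32.7 CPM in uninjected 1 and 315 CPM in uninjected 2.

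A test of whether the injection difference itself differed between Ccr7-positive and Ccr7-negative cells called 2 of 10038 genes (0.0199%), 1 with a positive and 1 with a negative difference (0.00996% each), and 341 had an unadjusted p under 0.05. Leaving out 1 library gave 22 calls without injected 1, 27 without injected 2, 29 without uninjected 1 and 0 without uninjected 2. On simulated counts the interaction test called 16 unchanged genes, beside 56 of 99 genes changed by 2 on the log2 scale. The genes called here were the collagenase gene Mmp13 and the matricellular gene Ccn2. In the Ccr7-positive cells, most UMIs of both lay in few cells. Of 662 Mmp13 UMIs in the Ccr7-positive cells, 569 lay in sub-cluster 7, and without the barcodes that Scrublet marked the estimate changed sign to -0.60. Of 30 Ccn2 UMIs in the Ccr7-positive cells, 22 lay in 1 cell of uninjected 2. With 1 library left out, the Ccn2 estimate ranged from -11.7 to -6.09. How Ccn2 UMIs were spread over the Ccr7-negative cells was not examined. Cd274 had an interaction of -1.11 that did not pass (edgeR adjusted p = 0.497).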

How the data were processed

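Droplet single-cell RNA libraries of day 4 rat skin wounds were analysed from the deposited UMI count matrices, made by the authors with Cell Ranger (version 7.2.0 per the file headers, 5.0.1 per the submitters' processing notes). The genome build is not given in the sources used here. The matrices hold all barcodes, with 75823418 to 105605297 UMIs per library and 23999 genes. Cells were chosen from the raw counts by the rule in the text. The cell rule, the gene lists and the tests were chosen with earlier results of these data known.

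UMIs were summed per library and cell set and tested with edgeR 4.0.16 (TMM normalisation, filterByExpr, quasi-likelihood test, Benjamini-Hochberg adjustment over all genes tested) in R 4.3.3, with the library as a block between cell sets and no block between injected and uninjected wounds. DESeq2 1.42.0, other size factors, no filter, each library left out, thinning to 1000 UMIs, a minimum of 2 Ccr7 UMIs and removal of barcodes marked by Scrublet (expected rate 0.8% per 1000 barcodes) were alternatives. Further alternatives, limiting both sets by Cd74 and leaving out the sub-clusters led by keratinocyte or B cell genes, were chosen after seeing the data. Sub-clusters used scanpy 1.11.5 (1500 variable genes, 20 components, 15 neighbours, Leiden resolution 0.8). A marker was called raised in a sub-cluster when present in at least 20% of its cells and at least 2-fold over the median sub-cluster. The tests were checked on simulated data, with genes changed by 2 or by 1 on the log2 scale. The injection test called 65 of 99 and 3 of 94 of these, and 10 unchanged genes. The test between cell sets called 93 of 96 and 60 of 100, and 8 unchanged genes. The interaction test called 56 of 99 and 6 of 99, and 16 unchanged genes.

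Genes are named by these rules: a fixed panel, the 4 smallest p of each list, the 12 largest differences each way between cell sets at 50 CPM or more and on the same side in every library, the 10 smallest p of the injection comparison, and the 6 smallest p of the interaction; some genes that these rules name are not reported here. Single genes outside these rules were chosen after their values were seen. UMIs remove PCR copies, and intervals cover counting error only. Replicate numbers are shared between groups in the labels, but same-numbered libraries did not deviate together (r = -0.035 over 7604 genes), so they were not taken as pairs.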

Additional observations from a re-analysis of the deposited data

Results flagged for a closer look

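Both genes whose injection difference differed between Ccr7-positive and Ccr7-negative cells are given here because the test of that difference passed. For Mmp13 the Ccr7-positive cells had 242 and 209 CPM in injected wounds, against 96.3 and 29.8 CPM in uninjected ones, while the Ccr7-negative cells had 83.3 and 39.0 CPM in injected wounds, against 187 and 159 CPM in uninjected ones. The difference of the differences was 3.79 ± 0.46 on the log2 scale (SE, edgeR adjusted p = 0.0457). Sub-cluster 7, in which Scrublet marked 17 of 19 cells, held 86.0% of the Mmp13 UMIs of the Ccr7-positive cells, and 1 cell of injected 1 held 289 of 662. Without sub-clusters 7 and 9 the value was 0.17.

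For Ccn2 the Ccr7-positive cells held 3 and 0 UMIs in injected wounds, against 1 and 26 UMIs in uninjected ones, and the Ccr7-negative cells held 122 and 145 UMIs in injected wounds, against 1 and 11 UMIs in uninjected ones. The difference of the differences was -7.14 ± 0.95 (edgeR adjusted p = 0.0493), and 1 cell of sub-cluster 7 in uninjected 2 held 22 of the 30 UMIs in Ccr7-positive cells. How many Ccr7-negative cells held the others was not examined. The next 4 genes, Mmp3, Spp1, Ccl4 and Cdh5, did not pass, with edgeR adjusted p from 0.097 to 0.193.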

How the results depend on the processing

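Between injected and uninjected wounds, where edgeR called 0 genes, DESeq2 called 8 and edgeR without a filter on low counts 161, and leaving out 1 library gave 9 to 513, the 513 without uninjected 2 and the 81 without uninjected 1. The cause was not tested. A fit with the replicate number as a block called 0 genes, and the numbers are not shown to pair the libraries. Between Ccr7-positive and Ccr7-negative cells, where 1894 genes passed, thinning left 605, no library block 701 and the limit on Cd74 849, and leaving out 1 library gave 863 to 1926, the lowest without uninjected 2 and 1056 without injected 1. Without a filter 2735 passed, 47.1% of them higher, against 57.2% in the fit as reported. Without marked barcodes 1822 passed between the cell sets, and 0 genes between injected and uninjected wounds. Without sub-clusters 7 and 9, 2477 passed between the cell sets, 53.0% of them higher, and 0 between injected and uninjected wounds. The interaction fit without these sub-clusters called 2 genes, 0 of them shared with the 2 of the main fit. With Ccr7-negative cells lacking Fscn1, Sparc changed sign to 0.17, Cavin3 to 0.93 and Serpinh1 to 0.66, and with both sets limited by Cd74 Cavin3 stood at 0.62, Serpinh1 at 0.89 and Tcf4 at 0.23. Of the 2 interaction calls, DESeq2 made 4, no filter 56, no marked barcodes 1, at least 2 Ccr7 UMIs 0, thinning 0 and the Cd74 limit 0, and leaving out 1 library gave 0 to 29. Mmp13 stood at -0.60 without marked barcodes, and Cd63 between injected and uninjected wounds ranged from -0.31 to 0.13 with 1 library left out, the 0.13 without uninjected 1, where it was -0.13 with all libraries. The difference in the share of filtered barcodes, 0.097 percentage points, was -0.0381 after thinning, -0.0628 at 2 or more Ccr7 UMIs and -0.0278 at 2000 or more UMIs, and leaving out 1 library gave -1.03 to 1.23. The difference in the share of the 2 cell sets together, -1.29, ranged from -7.23 to 4.65 with 1 library left out, with 1.28 without injected 2 and 4.65 without uninjected 2. Thinning, which left 3202 of 8868 genes to test between the cell sets, called 18.9% of them, against 21.4% at full depth, and 0 of 2452 between injected and uninjected wounds.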

Other observations

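Of 17 dendritic lineage genes tested between Ccr7-positive and Ccr7-negative cells, 9 passed as higher and 3 as lower, with a median log2 fold change of 0.55, where 12.2% and 9.13% of all tested genes did. Id2, an inhibitor of lineage factors needed by conventional dendritic cells, stood at 1013, 1359, 1206 and 1361 CPM in positive cells, against 365, 623, 819 and 320 CPM in negative cells (log2 fold change 1.33, edgeR adjusted p = 0.00236). Cst3, the protease inhibitor cystatin C that marks conventional dendritic cells, averaged 6208 ± 3219 CPM in positive and 1930 ± 1277 CPM in negative cells (log2 fold change 1.74), with the groups overlapping. Outside that list, the endothelial list gene Kdr, known as a receptor for vascular endothelial growth factor, had 368, 971, 412 and 1339 CPM in positive cells, against 194, 229, 237 and 283 CPM in negative cells (log2 fold change 1.56, edgeR adjusted p = 0.00225). Cybb, a subunit of the phagocyte oxidase from the antigen uptake list, was lower, at 55.0 ± 24.3 CPM in positive and 166 ± 63.5 CPM in negative cells.

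Of 15 migrasome and vesicle genes tested between the cell sets, 2 passed as higher and 1 as lower, close to the 12.2% and 9.13% of all tested genes that did. The tetraspanin Cd63, abundant in endosomes and vesicles, averaged 5124 ± 746 CPM in positive and 2518 ± 807 CPM in negative cells (log2 fold change 1.06, edgeR adjusted p = 0.000367). In the Ccr7-positive cells it had 4600 and 4272 CPM in injected wounds, against 5661 and 4054 CPM in uninjected ones (log2 fold change -0.13, and 0.13 without uninjected 1), and none of the 14 tested genes of that list passed.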
